A study of Mus musculus with 20 samples.

Results

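The genes described here are the 10 that carry out and control the breakdown of stored fat and that coat the lipid droplet: Pnpla2, Lipe, Mgll, Abhd5, G0s2, Plin1, Plin2, Cidec, Adrb3 and Pde3b. They were taken by name from a table of 14776 genes measured in mouse epididymal white adipose tissue (eWAT), and all 10 were found in it. RNA was sequenced from 20 male C57BL/6J mice that entered the study at 6 weeks of age and were kept on their diets for 20 weeks. The NC group (6 mice) ate normal chow, the HFD group (7 mice) ate a diet with 60% of its energy as fat and received saline by gavage, and the SZ-A group (7 mice) ate that same diet and received Ramulus Mori (Sangzhi) alkaloids, an extract of mulberry twig, at 400 mg/kg each day during the last 6 weeks. All mice had been fasted overnight before the tissue was taken. The labels do not say whether mice of a group shared a cage or litter, and they give no batch or date.

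Fat is stored in adipocytes as triglyceride inside lipid droplets. Noradrenaline acts on the beta-adrenergic receptors, of which Adrb3 is the form typical of rodent adipocytes, and raises cyclic AMP, while insulin activates the phosphodiesterase Pde3b, which degrades cyclic AMP. Protein kinase A then phosphorylates the droplet coat protein Plin1, which releases Abhd5, the activator of the triglyceride lipase encoded by Pnpla2 (ATGL). Lipe (hormone-sensitive lipase) and Mgll (monoacylglycerol lipase) complete the release of fatty acids and glycerol, G0s2 inhibits ATGL, Cidec makes droplets fuse and grow, and Plin2 coats the droplets of many cell types, foamy macrophages included. Much of this control acts on the proteins, which the RNA does not show.

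The tissue label was checked against marker lists, and several libraries stood apart. Levels are in FPKM, fragments scaled to exon length and to the size of the library, and log2(FPKM + 1) averaged over a list gave its score. All 12 adipocyte markers were in the table, and their score ran from 3.54 to 8.37 in NC mice, 5.14 to 7.21 in HFD mice and 6.69 to 8.45 in SZ-A mice, with summed levels of 484 to 21777, 1070 to 5074 and 3198 to 13175 FPKM. The score of all 18 macrophage markers did not overlap between any groups, at 2.19 to 4.23 in NC mice, 6.54 to 7.49 in HFD mice and 5.12 to 6.48 in SZ-A mice, with summed levels of 238 to 932, 4683 to 12287 and 1814 to 6630 FPKM. NC replicate 6 held little adipocyte RNA, with 26.6 FPKM of Adipoq (adiponectin) against 859 to 2278 in the other NC mice, and the highest epididymis score (9.08). Of 16 epididymis markers listed, only 6 were in the table, Lcn2, Krt18, Clu and Spint2 among them. Whether epididymis tissue was the source of their RNA was not tested. The summed level of these epididymis markers was 16.6 to 33.8 FPKM in HFD mice, 89.8 to 6732 in NC mice and 18.3 to 1866 in SZ-A mice, where replicates 2 and 7 were highest (scores of 7.17 and 5.66). No gene of the table, marker genes included, was at 0 in any mouse. In bulk tissue, fewer cells of a type and less RNA per cell cannot be told apart. The adipocyte list also holds genes that moved in opposite directions with the diet. Cfd was at 4730 to 13266 FPKM in NC replicates 1 to 5, at 47.9 to 388 in HFD mice and at 476 to 2993 in SZ-A mice. Lep was at 45.4 to 189 FPKM in those NC mice and at 125 to 695 in HFD mice. The adipocyte score therefore does not measure adipocyte content alone. Its ranges in HFD and SZ-A mice overlap only in part. A fit of SZ-A against HFD with this score thus cannot fully tell adipocyte content from treatment.

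NC replicate 6 had the lowest level of all 10 genes among NC mice, so differences of the 10 genes from NC are also given without it, apart from fits with the macrophage or epididymis score. HFD replicate 1 was the lowest HFD mouse for 9 of the 10 genes and the highest for Plin2, and it had the lowest adipocyte score (5.14) and the highest macrophage score (7.49) of its group. SZ-A replicate 4 was the highest SZ-A mouse for 7 of the 10 genes and had the highest adipocyte score (8.45).

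**Figure D1:**
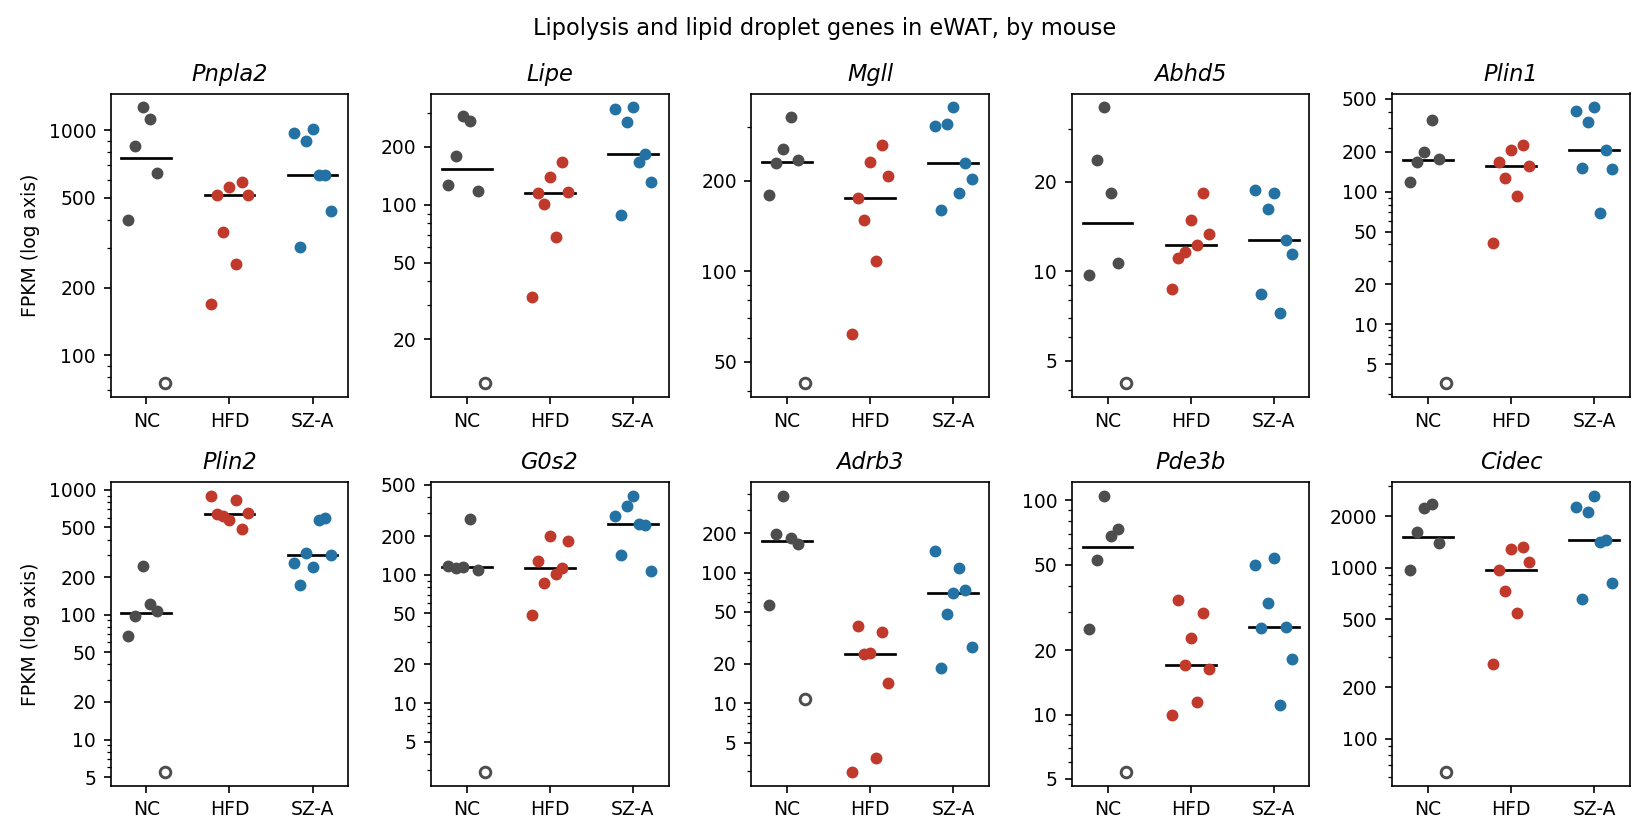
FPKM (log axis) of the 10 genes in each mouse, by group; each point is 1 mouse, the bar is the group median, and the open circle is NC replicate 6. Plin2 did not overlap between NC (5.51 to 248) and HFD (483 to 896), whereas Abhd5 overlapped widely in all 3 groups.

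Cidec was the most abundant of the 10 genes per length in every group, with a mean of 1436 ± 850 FPKM in NC (SD, n = 6), 886 ± 391 in HFD (n = 7) and 1616 ± 746 in SZ-A (n = 7). Abhd5 was the least abundant, at 17.1 ± 11.4, 12.9 ± 3.08 and 13.3 ± 4.61 FPKM. Recovered from the deposited values, between 37 reads (G0s2 in NC replicate 6) and 85813 reads (Cidec) lay behind a value, out of 13565483 to 19383935 reads on genes per mouse, so spread between mice and not counting limits most of what follows.

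A gene is said to rise or fall where limma gave an adjusted p under 0.05 over all genes tested, and fold changes are on the scale of log2(FPKM + 1). Against NC, 1 of the 10 genes (Plin2) rose in HFD mice and 1 (Adrb3) fell. Over all 14706 genes tested, 21% rose and 20.1% fell, so the share of the 10 genes that was called was below that of the table. Both also passed the stricter threshold in the study's methods, a log2 fold change beyond 1.5, as did 7.97% of all genes. The study's results text gives a fold change above 1.5 instead. Without NC replicate 6, 5 of the 10 genes were called: Plin2 rose, and Adrb3, Pde3b, Pnpla2 and Cidec fell. In that fit 45.2% of all genes were called, so the count is near that of the table. In SZ-A against HFD mice, Adrb3 and G0s2 rose and Plin2 fell. Of 14695 genes, 9.47% rose and 13.3% fell, and 0.864% passed the stricter threshold, which among the 10 genes only Adrb3 did. With 3 groups in 1 fit, which shares the wide spread of the NC mice, none of the 10 passed in SZ-A against HFD, with 1 at an unadjusted p under 0.05, whereas voom on recovered reads called 3. Of all genes, 14.2% were called in the fit with 3 groups and 23.2% by voom. Against NC, none of the 10 genes was called in SZ-A mice, with 1 at an unadjusted p under 0.05 and none called by voom, beside 4.15% of all genes higher, 0.455% lower and 1.79% past the stricter threshold in the main fit. Voom called 4.15% of all genes there in either direction. The median log2 fold change of the 10 genes was -0.24 in HFD against NC, 0.72 in SZ-A against HFD and 0.51 in SZ-A against NC, beside -0.041, 0.031 and -0.0012 over all genes tested. Without NC replicate 6 the medians against NC were -0.78 for HFD and -0.084 for SZ-A, beside -0.044 and 0.0017 over all genes. The HFD mice enter both of the first comparisons, which are therefore not independent.

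**Figure D2:**
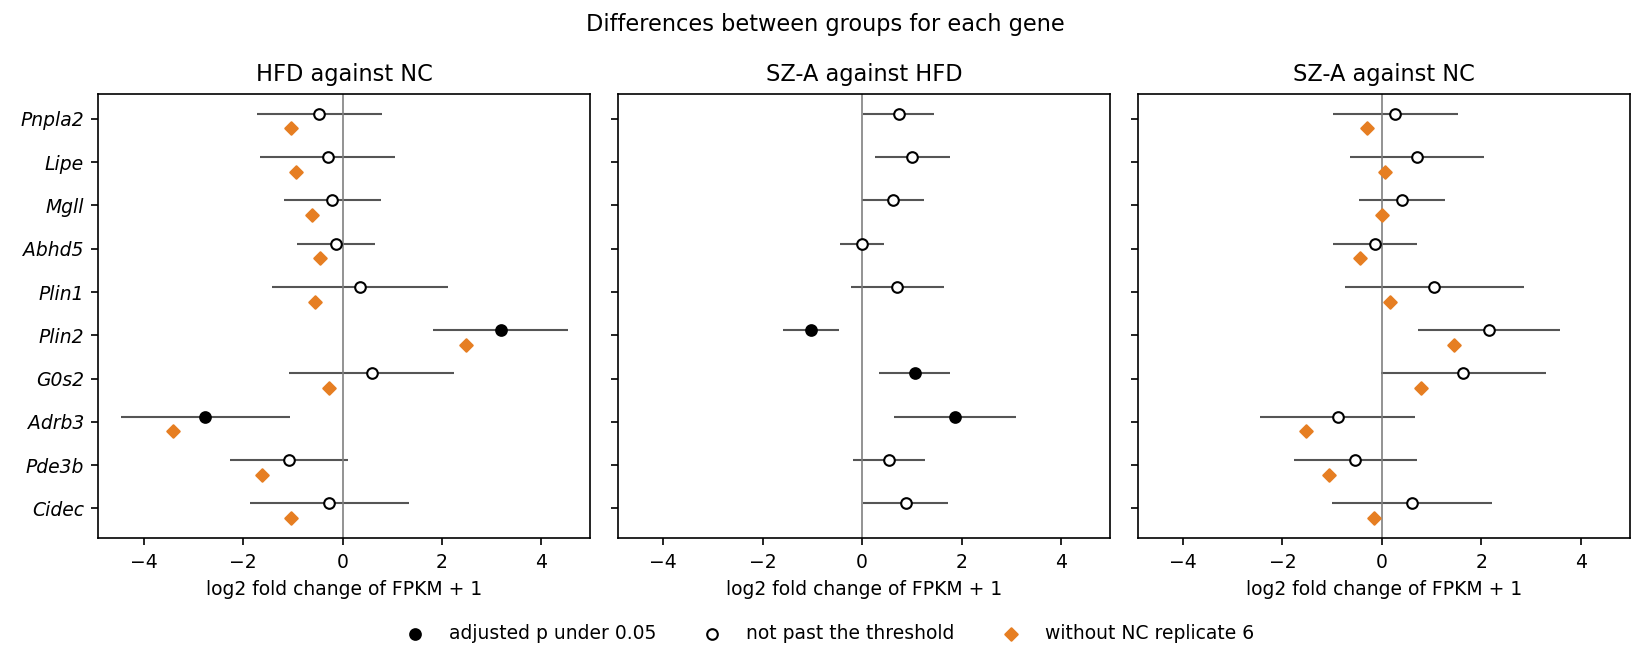
Log2 fold change of FPKM + 1 for each gene in the 3 comparisons (x axis); circles are the estimates with 95% intervals, filled where the adjusted p was under 0.05, and orange diamonds leave out NC replicate 6. Without that mouse Plin1 moved from 0.35 to -0.55 and G0s2 from 0.58 to -0.27 in HFD against NC.

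Of the hormonal controls, the adrenergic receptor gene fell in HFD and rose with SZ-A. Adrb3 (ENSMUSG00000031489, GRCm38 chromosome 8, 27225776 to 27250616, minus strand) ranged from 10.7 through a median of 175 to 387 FPKM in NC mice, from 2.98 through 23.8 to 38.7 in HFD mice and from 18.7 through 70.1 to 148 in SZ-A mice. Apart from NC replicate 6 (10.7), every NC mouse (56.4 or more) lay above every HFD mouse, while SZ-A overlapped both other groups. Adrb3 fell in HFD against NC, by 2.76 on the log2 scale (SE 0.79, adjusted p = 0.0131), and by 3.40 without NC replicate 6 (adjusted p = 0.00071). It rose by 1.87 in SZ-A against HFD (SE 0.58, adjusted p = 0.0304). That call was lost without any 1 of HFD replicates 1, 5 and 7 and SZ-A replicates 1 and 4 (adjusted p 0.0503 to 0.0679). In order of level, SZ-A lay between HFD and NC, and its difference from NC (-0.89, 95% interval -2.44 to 0.66) did not pass the test, nor did it without NC replicate 6 (-1.53, adjusted p = 0.125). The 2 HFD mice with the lowest Adrb3, replicates 1 and 5, also had the lowest adipocyte scores of their group (5.14 and 5.80). With the adipocyte score as a covariate, the fall with HFD was 1.99 (adjusted p = 0.000512), -0.84 if NC replicate 6 was also left out (adjusted p = 0.172), and the difference of SZ-A from HFD was 0.29 (adjusted p = 0.703). Without NC replicate 6, the adipocyte scores of NC (7.206 to 8.366) and HFD mice (5.139 to 7.214) barely overlap. In HFD against NC, every fit with that score and without that mouse therefore largely extrapolates.

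Pde3b (ENSMUSG00000030671, chromosome 7, 114415281 to 114539251, plus strand), the target of insulin in this pathway, ranged from 5.40 through a median of 60.8 to 105 FPKM in NC mice, from 9.96 through 17.1 to 34.2 in HFD mice and from 11.1 through 25.7 to 53.9 in SZ-A mice. The groups overlapped in every comparison. Its log2 fold change in HFD against NC was -1.08 (SE 0.56, adjusted p = 0.138), and without NC replicate 6 it fell by 1.61 (SE 0.36, adjusted p = 0.00255). SZ-A differed from HFD by 0.55 (95% interval -0.18 to 1.27) and from NC by -0.53, or -1.07 without NC replicate 6, none of which passed. Once the adipocyte score was a covariate, Pde3b fell by 0.51 in HFD against NC (adjusted p = 0.0415), or differed by -0.25 with NC replicate 6 also left out (adjusted p = 0.575). Within each mouse, the ratio of Pde3b to Adrb3 did not overlap between NC (log2 ratio -1.87 to -0.87) and HFD (-0.45 to 1.46). The ratio was higher in HFD by 1.69 (two-sided exact permutation p = 0.000583, the smallest possible with 6 and 7 mice, and adjusted p = 0.00437 over the 15 tests of 5 ratios in 3 comparisons), and by 1.79 without NC replicate 6 (adjusted p = 0.00947 by the same exact test). In SZ-A mice the ratio was -1.03 ± 1.16 (SD, n = 7) against 0.30 ± 0.79 in HFD (n = 7), a difference of -1.32 that missed the threshold in the exact permutation test (adjusted p = 0.0537). SZ-A replicate 5 had the lowest ratio (-3.17).

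Of the 3 lipases among the 10 genes, Pnpla2 had the highest mean level per length in each group. Pnpla2 (ENSMUSG00000025509, chromosome 7, 141455198 to 141460743, plus strand) ranged from 75.1 through a median of 749 to 1264 FPKM in NC mice, from 169 through 513 to 587 in HFD mice and from 304 through 636 to 1014 in SZ-A mice. All groups overlapped, with 5 of 7 SZ-A mice above the highest HFD mouse. Pnpla2 differed between HFD and NC by -0.46 (SE 0.58, adjusted p = 0.549), and it fell by 1.03 without NC replicate 6 (SE 0.37, adjusted p = 0.0355). In SZ-A against HFD the difference was 0.73 (95% interval 0.02 to 1.45, adjusted p = 0.124), and it rose by 0.92 without SZ-A replicate 2 (adjusted p = 0.0448), a library with a raised epididymis score. Its difference from NC was 0.27 (95% interval -0.99 to 1.53), and -0.29 without NC replicate 6.

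Lipe (ENSMUSG00000003123, chromosome 7, 25379527 to 25398710, minus strand) ranged from 11.8 through a median of 153 to 289 FPKM in NC mice, from 33.1 through 114 to 167 in HFD mice and from 88.9 through 184 to 321 in SZ-A mice. Of the SZ-A mice, 5 of 7 lay above the highest HFD mouse (167), replicate 5 by less than 1 FPKM. Its difference in SZ-A against HFD was 1.01 (SE 0.36, 95% interval 0.25 to 1.77), with an adjusted p of 0.0535 that fell to 0.0368 without HFD replicate 6 and to 0.0202 without SZ-A replicate 2. In HFD against NC it was -0.30 (adjusted p = 0.733), and -0.94 without NC replicate 6 (adjusted p = 0.0535). In SZ-A against NC it was 0.71, and 0.066 without that mouse.

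Mgll (ENSMUSG00000033174, chromosome 6, 88724412 to 88828360, plus strand) ranged from 42.4 through a median of 231 to 324 FPKM in NC mice, from 61.9 through 175 to 263 in HFD mice and from 160 through 229 to 350 in SZ-A mice. It passed in none of the comparisons: -0.21 in HFD against NC (95% interval -1.18 to 0.76), 0.62 in SZ-A against HFD (-0.01 to 1.25) and 0.41 in SZ-A against NC (-0.47 to 1.28). Without NC replicate 6 the first of these was -0.62 (adjusted p = 0.126), and it was 0.0090 without HFD replicate 1 (adjusted p = 0.99) while the last was -0.0040 without NC replicate 6 (adjusted p = 0.997).

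All 3 lipases took the other sign in HFD against NC and in SZ-A against HFD once the adipocyte score was a covariate. In those fits the differences of SZ-A from HFD were -0.27 for Pnpla2, -0.11 for Lipe and -0.26 for Mgll (adjusted p 0.369 to 0.688), and those of HFD from NC were 0.13, 0.36 and 0.25 (adjusted p 0.0910 to 0.558). With NC replicate 6 also left out, Mgll rose in HFD against NC, by 0.67 (adjusted p = 0.0298), and the differences were 0.41 for Pnpla2 (adjusted p = 0.279) and 0.54 for Lipe (adjusted p = 0.156). The adipocyte scores of NC and HFD mice barely overlap in that fit, so it largely extrapolates. The adipocyte list holds none of the 10 genes, but it holds genes that moved with the diet, such as Cfd and Lep. Cfd did not overlap between HFD and SZ-A mice either. The adipocyte scores of HFD (5.14 to 7.21) and SZ-A mice (6.69 to 8.45) overlap only in part, so that fit cannot fully separate the score from treatment. Lipe and Mgll share exon bases with antisense genes (4732471J01Rik, at 0.0449 to 1.25 FPKM, and Gm26588, at 0.167 to 11.2 FPKM), as does Adrb3 with Gm45470 (0.0511 to 7.79 FPKM) and Abhd5 with A730085K08Rik, and whether reads were counted by strand is not given in the sources used here.

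**Figure D3:**
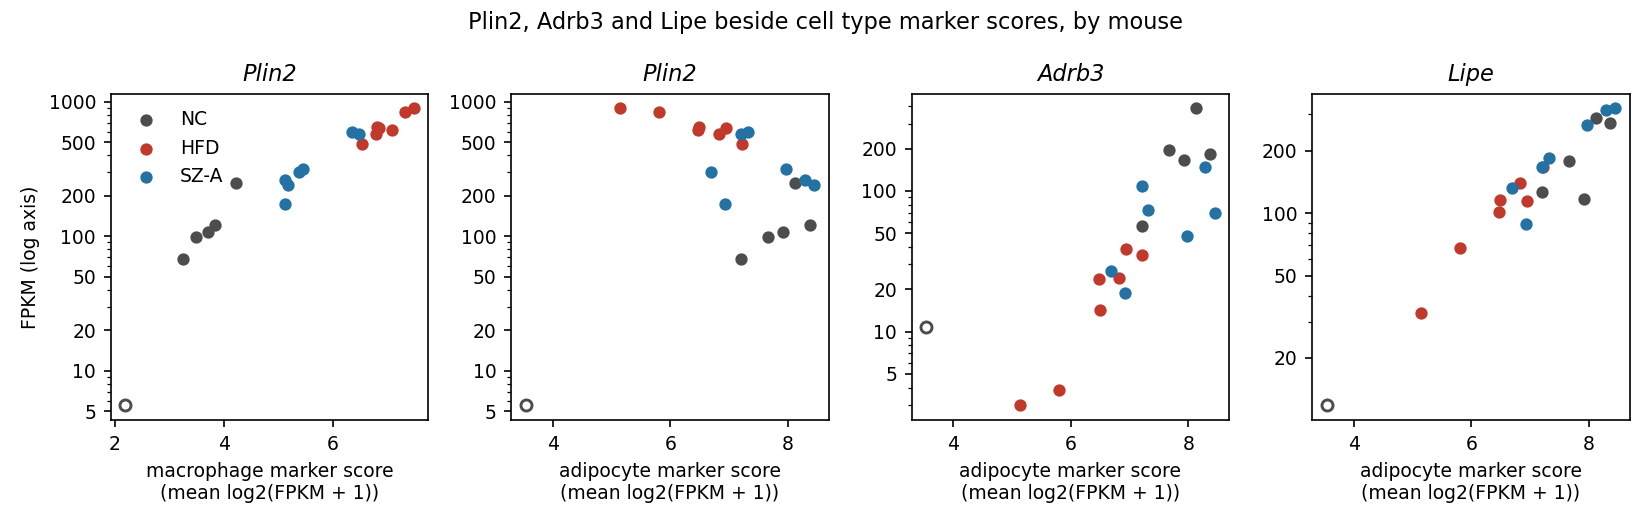
FPKM (log axis) of Plin2, Adrb3 and Lipe in each mouse against the macrophage or adipocyte marker score (mean log2(FPKM + 1)), coloured by group; the open circle is NC replicate 6. The HFD mouse with the highest macrophage score had the most Plin2 (896 FPKM at 7.49), and the one with the lowest adipocyte score had the least Adrb3 (2.98 FPKM at 5.14).

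Abhd5 and G0s2 encode the regulators of ATGL. Abhd5 (ENSMUSG00000032540, chromosome 9, 122351608 to 122381524, plus strand), the activator, ranged from 4.21 through a median of 14.5 to 35.6 FPKM in NC mice, from 8.74 through 12.2 to 18.4 in HFD mice and from 7.24 through 12.8 to 18.7 in SZ-A mice. The HFD and SZ-A ranges nearly coincided. Its difference between SZ-A and HFD was -0.00 with a 95% interval of -0.44 to 0.44, and it took either sign as single mice were left out (-0.09 to 0.12). In HFD against NC it was -0.14 (95% interval -0.92 to 0.64) and in SZ-A against NC it was -0.14 (-0.98 to 0.70). Without NC replicate 6 these were -0.44 and -0.45, and without NC replicate 3 they were 0.12 and 0.12.

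G0s2 (ENSMUSG00000009633, chromosome 1, 193272161 to 193273217, minus strand), the inhibitor, ranged from 2.91 through a median of 114 to 273 FPKM in NC mice, from 48.3 through 112 to 201 in HFD mice and from 107 through 249 to 411 in SZ-A mice. In SZ-A mice, 5 of 7 lay above the highest HFD mouse. G0s2 rose by 1.05 in SZ-A against HFD (SE 0.34, adjusted p = 0.0355), a call that was lost without any 1 of HFD replicates 1, 3, 5 and 6 and SZ-A replicates 1, 3 and 4 (adjusted p 0.0521 to 0.0733). The difference was 0.16 once the adipocyte score was a covariate (adjusted p = 0.728), though the scores of these groups overlap only in part. In HFD against NC it was 0.58 (SE 0.77, adjusted p = 0.572), and -0.27 without NC replicate 6. In SZ-A against NC it was 1.64 (adjusted p = 0.268) and 0.78 without NC replicate 6 (adjusted p = 0.245), and with the adipocyte score as a covariate it rose, by 1.17 with all mice (adjusted p = 0.00473) and by 1.05 without NC replicate 6 (adjusted p = 0.0152).

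The ratio of the inhibitor G0s2 to its target Pnpla2 within each mouse, as log2, was -2.83 ± 0.93 in NC (SD, n = 6), -1.79 ± 0.38 in HFD (n = 7) and -1.47 ± 0.32 in SZ-A (n = 7). It was higher in SZ-A than in NC mice by 1.37 (exact permutation test, adjusted p = 0.00437), and by 1.08 without NC replicate 6 (exact permutation test, adjusted p = 0.00947). The difference of HFD from NC was 1.05 (exact permutation test, adjusted p = 0.042), a call that was lost without NC replicate 2, 3 or 6 or any HFD mouse but replicate 6 (adjusted p 0.0537 to 0.0844). SZ-A and HFD differed by 0.32, which did not pass (exact permutation test, adjusted p = 0.149). NC replicate 6 had the lowest ratio of the NC mice (-4.28), and the NC mice spread from there to -1.78, overlapping the HFD range of -2.38 to -1.32.

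Among the droplet coat genes, Plin2 separated from Plin1 and Cidec. Plin2 (ENSMUSG00000028494, chromosome 4, 86648386 to 86670060, minus strand) ranged from 5.51 through a median of 103 to 248 FPKM in NC mice, from 483 through 638 to 896 in HFD mice and from 174 through 301 to 600 in SZ-A mice. NC and HFD did not overlap, as for 20.5% of all genes, and in SZ-A mice 5 of 7 (174 to 314 FPKM) lay below every HFD mouse while replicates 5 and 6 (575 and 600) lay inside the HFD range. Groups did not overlap for 6.08% of all genes in SZ-A against HFD and 3.57% in SZ-A against NC, and for none of the 10 genes. Plin2 rose by 3.18 in HFD against NC (SE 0.63, adjusted p = 0.00132), and by 2.49 without NC replicate 6 (SE 0.27, adjusted p = 1.06e-05). It fell by 1.03 in SZ-A against HFD (SE 0.27, adjusted p = 0.0137) and kept an adjusted p of at most 0.0335 when any single mouse was left out, but it was -0.69 with the epididymis score as a covariate (adjusted p = 0.0719). Its difference from NC in SZ-A mice was 2.15 (95% interval 0.73 to 3.58, adjusted p = 0.0867), and it rose by 1.46 without NC replicate 6 (adjusted p = 0.0324) and by 2.51 without NC replicate 3 (adjusted p = 0.0409).

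Plin2 and the macrophage score put the groups in the same order. SZ-A replicates 5 and 6 had the highest macrophage scores of their group (6.48 and 6.35), against 5.12 to 5.45 in the other SZ-A mice, and the NC mouse with the most Plin2, replicate 3, had the highest macrophage score of NC (4.23). With the macrophage score as a covariate, the difference of HFD from NC turned to -4.55 (adjusted p = 0.0154) and that of SZ-A from HFD to 0.40 (adjusted p = 0.252). The scores do not overlap between these groups, so these fits extrapolate. With the adipocyte score as a covariate, Plin2 rose in HFD against NC, by 3.73 with all mice (adjusted p = 6.14e-06) and by 2.34 without NC replicate 6 (adjusted p = 0.00243), and differed by -0.70 in SZ-A against HFD (adjusted p = 0.177). The gene whose pattern over the 20 mice was nearest to that of Plin2 was Ccl6, a chemokine gene of myeloid cells, with a mean absolute difference of 0.136 in z-scored level among 14716 genes. How far macrophages carry the Plin2 RNA was not tested.

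Plin1 (ENSMUSG00000030546, chromosome 7, 79720218 to 79732903, minus strand), the coat protein of adipocyte droplets, ranged from 3.59 through a median of 172 to 347 FPKM in NC mice, from 41.0 through 157 to 224 in HFD mice and from 68.9 through 207 to 433 in SZ-A mice. All groups overlapped, and SZ-A replicate 5 was the lowest of its group. It passed in none of the comparisons: 0.35 in HFD against NC (95% interval -1.43 to 2.12), -0.55 without NC replicate 6, and 0.71 in SZ-A against HFD (-0.22 to 1.64). In SZ-A against NC it was 1.06, and 0.16 without NC replicate 6. With the adipocyte score as a covariate it rose in HFD against NC, by 1.23 with all mice (adjusted p = 6.99e-06) and by 1.09 without NC replicate 6 (adjusted p = 0.00315).

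Cidec (ENSMUSG00000030278, chromosome 6, 113424634 to 113435760, minus strand) ranged from 63.9 through a median of 1503 to 2362 FPKM in NC mice, from 273 through 965 to 1323 in HFD mice and from 651 through 1447 to 2628 in SZ-A mice. Its difference in HFD against NC was -0.26 (SE 0.74, adjusted p = 0.801), and it fell by 1.04 without NC replicate 6 (SE 0.40, adjusted p = 0.0469). SZ-A differed from HFD by 0.87 (95% interval 0.02 to 1.73, adjusted p = 0.125) and from NC by 0.61, or -0.16 without NC replicate 6. With the adipocyte score as a covariate it rose in HFD against NC, by 0.51 (adjusted p = 0.0187), which did not hold with NC replicate 6 also left out (0.53, adjusted p = 0.149).

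Ratios within a mouse set the coat genes against each other. The log2 ratio of Plin2 to Plin1 was -1.51 to 0.51 in NC and 1.10 to 4.42 in HFD mice, with no overlap. It was higher in HFD by 2.84 (exact permutation test, p = 0.000583, the smallest possible, adjusted p = 0.00437), and by 3.04 without NC replicate 6 (exact permutation test, adjusted p = 0.00947). In SZ-A mice it was 0.60 ± 1.37 (SD, n = 7), from -0.85 to 3.04. The difference from HFD, -1.74, missed the threshold (exact permutation test, adjusted p = 0.0537), and it was -2.15 without SZ-A replicate 5 (exact permutation test, adjusted p = 0.0108). The ratio of Cidec to Plin1 was lower in HFD (2.61 ± 0.10, SD, n = 7) than in NC mice (3.22 ± 0.38, n = 6), by 0.61 (exact permutation test, adjusted p = 0.00437). Without NC replicate 6 this difference was -0.49 (exact permutation test, adjusted p = 0.00947), and NC replicate 4 (2.76) lay just inside the HFD range of 2.52 to 2.77. SZ-A replicate 5 stood far above the other SZ-A mice (4.33 against 2.10 to 2.80), and without it the ratio was lower in SZ-A than in NC by 0.71 (exact permutation test, adjusted p = 0.0108) against -0.45 with it (exact permutation test, adjusted p = 0.263). With SZ-A replicate 5 kept and NC replicate 6 left out it was -0.32 (exact permutation test, adjusted p = 0.488). For Abhd5 to Plin1, SZ-A differed from HFD by -0.71 (exact permutation test, adjusted p = 0.0557), and by -0.86 without SZ-A replicate 5 (exact permutation test, adjusted p = 0.0125). In that comparison, 3 ratios (Plin2 to Plin1, Abhd5 to Plin1 and Pde3b to Adrb3) passed with a pseudocount of 0.1 (exact permutation test, adjusted p = 0.047) or by the exact rank-sum test (adjusted p = 0.0492).

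**Figure D4:**
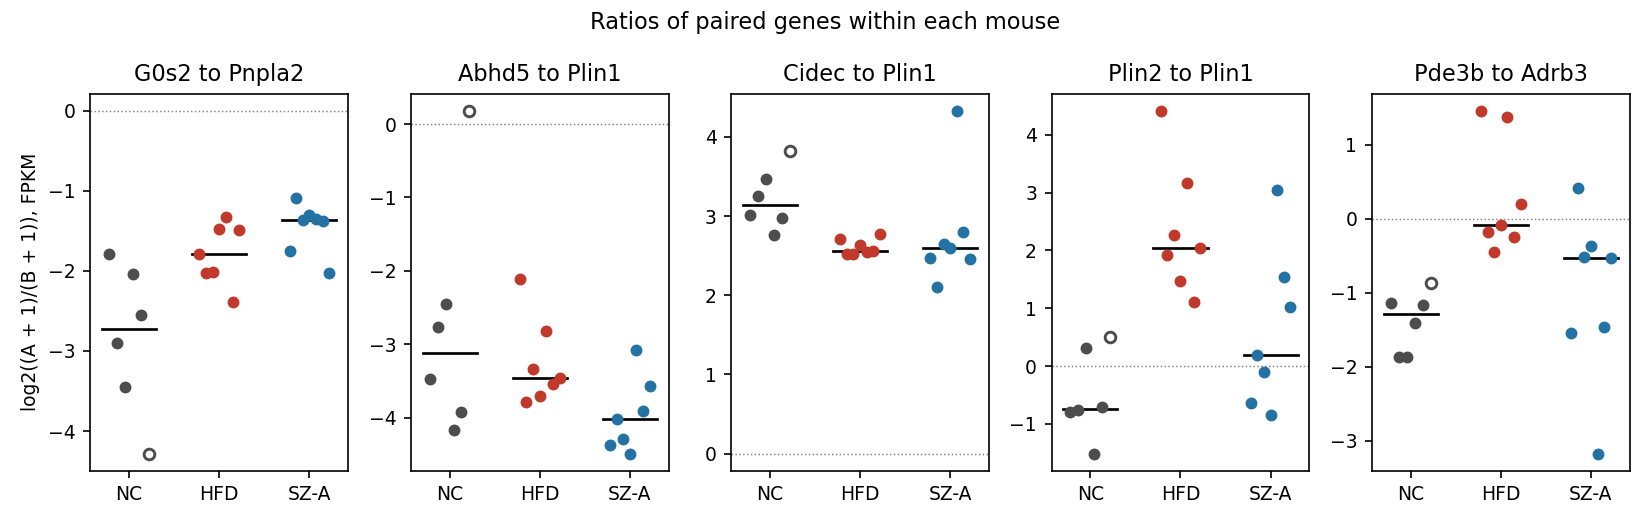
Log2 ratio of FPKM + 1 for 5 pairs of genes in each mouse (y axis), by group; the bar is the group median and the open circle is NC replicate 6. Plin2 to Plin1 and Pde3b to Adrb3 do not overlap between NC and HFD, and SZ-A replicate 5 stands apart for Cidec to Plin1 (4.33).

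Several of the 10 genes followed each other across the 20 mice. By the smallest mean absolute difference in z-scored level, the nearest of all 14716 genes to Pnpla2 (0.146) and to Lipe (0.132) was Cidec, and the nearest to Cidec was Lipe. Mgll was nearest to Plin4 (0.188), another droplet coat gene, Plin1 to Carhsp1 (0.121), Pde3b to Acvr1c (0.155), which is also in the adipocyte list, and G0s2 to Cdc42ep1 (0.201). The nearest gene to Abhd5 was Rgma, at a wider distance (0.321). These are descriptions of mice that share groups, libraries and adipocyte content.

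The bases just before the start sites are shown for Plin2 and G0s2, which were called with SZ-A, and for Plin1 and Cidec, which carry 1 of the motifs searched. RefSeq (GRCm38.p6) gave start sites for 8 of the 10 genes, 11 in all. Motifs were searched on both strands in the 250 bases before each start: TTGCNNAA (the form bound by C/EBP factors), a direct repeat of AGGNCA with 1 base between the repeats (the form bound by PPAR and RXR), TGACGTCA (the cyclic AMP response element) and TATAAA (the TATA box). TTGCNNAA was found before 2 of the 11 start sites, of Plin1 and Cidec, and before 9.56% of all 32851 start sites. No match to the other motifs was found before the 11 start sites, so none overlapped, and over all start sites their shares were 0.338%, 1.55% and 12.4% in the order given. Capitals mark TTGCNNAA, at -187 to -180 and -58 to -51 from the start of Plin1 and at -198 to -191 from that of Cidec. The windows are chr7:79732777-79733026 for Plin1, chr6:113434765-113435014 for Cidec (1 of its 2 start sites), chr4:86670060-86670309 for Plin2 and chr1:193273189-193273438 for G0s2, all on the minus strand and written 5′ to 3′.
Plin1: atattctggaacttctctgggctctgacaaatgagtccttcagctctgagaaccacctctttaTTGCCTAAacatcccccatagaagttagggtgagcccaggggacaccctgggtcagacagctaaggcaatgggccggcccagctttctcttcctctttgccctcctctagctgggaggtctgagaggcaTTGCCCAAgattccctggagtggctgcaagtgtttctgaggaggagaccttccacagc
Cidec: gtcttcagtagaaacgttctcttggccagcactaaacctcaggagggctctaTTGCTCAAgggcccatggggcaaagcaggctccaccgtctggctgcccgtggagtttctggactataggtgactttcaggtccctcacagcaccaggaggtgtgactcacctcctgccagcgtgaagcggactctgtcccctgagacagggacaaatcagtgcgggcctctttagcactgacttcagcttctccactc
Plin2: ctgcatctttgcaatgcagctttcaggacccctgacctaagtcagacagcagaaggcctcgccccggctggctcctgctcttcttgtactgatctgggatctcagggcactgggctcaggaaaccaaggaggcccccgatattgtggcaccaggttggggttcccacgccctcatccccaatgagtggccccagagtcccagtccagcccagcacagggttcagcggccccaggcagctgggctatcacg
G0s2: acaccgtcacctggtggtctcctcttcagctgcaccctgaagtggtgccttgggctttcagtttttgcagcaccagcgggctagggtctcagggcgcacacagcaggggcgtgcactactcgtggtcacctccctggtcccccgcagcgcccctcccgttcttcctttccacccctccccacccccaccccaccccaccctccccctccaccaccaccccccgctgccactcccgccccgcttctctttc

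Of 90 further genes of the pathway, 81 were in the table and all of these were tested. In HFD against NC, 12 rose and 12 fell, in SZ-A against HFD 9 rose and 10 fell, and in SZ-A against NC 4 rose and none fell. The shares of all genes were 21% and 20.1%, 9.47% and 13.3%, and 4.15% and 0.455%. With all mice kept, the counts with SZ-A were therefore close to those of the table and the counts with HFD were below them. Their median log2 fold changes were 0.06, 0.25 and 0.23, beside -0.041, 0.031 and -0.0012 over all genes. When NC replicate 6 was left out, 15 rose and 27 fell in HFD against NC, and 5 rose and 1 fell in SZ-A against NC. In these fits 45.2% and 5.5% of all genes were called, so the count with HFD, both directions together, was no longer below that of the table. Of all 14697 genes tested in that HFD fit, 3325 rose and 3320 fell. Falls thus outnumbered rises among the further genes but not over all genes. In SZ-A against HFD, 3 rose and 5 fell once the adipocyte score was a covariate, where 7% of all genes were called.

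Among 18 receptors, 6 fell and none rose in HFD against NC, and 5 rose and none fell in SZ-A against HFD. Of all genes, 20.1% fell in the former and 9.47% rose in the latter. Leaving out NC replicate 6, 9 fell in HFD against NC, beside 3320 of all 14697 genes tested. Once the adipocyte score was a covariate, 5 rose and 6 fell in HFD against NC, and none rose and 1 fell in SZ-A against HFD. The fits with that score called 54.7% and 7% of all genes, in that order. Ffar4, the receptor for long-chain fatty acids, went from 20.9 ± 5.98 FPKM in NC (SD, n = 6) to 6.06 ± 1.28 in HFD (n = 7), where it fell by 1.60 with no overlap (SE 0.20, adjusted p = 3.65e-05), and by 1.78 without NC replicate 6. It rose to 13.1 ± 6.84 in SZ-A (n = 7), by 0.87 (adjusted p = 0.0312), a call lost without any 1 of HFD replicates 1, 3 and 5 and SZ-A replicates 1, 3 and 4 (adjusted p 0.0589 to 0.068). Ffar2, a receptor for short-chain fatty acids, rose by 1.27 in SZ-A against HFD (SE 0.32, adjusted p = 0.0117). Npr2, a natriuretic peptide receptor, rose by 0.89 (adjusted p = 0.0353), which was lost without any 1 of HFD replicates 1, 3 and 5 and SZ-A replicates 1, 3, 4 and 5 (adjusted p 0.0526 to 0.0732). Adra2c, an adrenergic receptor that lowers cyclic AMP, fell by 1.11 in HFD against NC (adjusted p = 0.0444). It was near the floor in HFD mice, at 0.0741 to 0.276 FPKM with 5 to 17 reads per mouse. The 1 FPKM added before the logarithm therefore weighs on its fold change. NC replicate 6 was at 12.1 FPKM against 0.244 to 1.29 in the other NC mice, and without it Adra2c fell by 0.63 (adjusted p = 0.00134). It kept its call only without NC replicate 3, 4, 5 or 6 (the adjusted p without any other mouse was 0.0582 to 0.0717).

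In the 28 genes of cyclic AMP and insulin signalling, 5 rose and 1 fell in HFD against NC, and none rose and 7 fell in SZ-A against HFD. The shares of all genes were 21% and 20.1% in the former, and 9.47% and 13.3% in the latter. Leaving out NC replicate 6, 6 rose and 5 fell in HFD against NC, where 45.2% of all genes were called. Once the adipocyte score was a covariate, 10 rose and 1 fell in HFD against NC and 2 fell in SZ-A against HFD, where 54.7% and 7% of all genes were called. The 3 with the largest changes in both were adenylyl cyclases, which make cyclic AMP. Adcy7 rose by 2.98 in HFD (SE 0.26, adjusted p = 1.49e-06), Adcy3 by 2.36 (SE 0.23, adjusted p = 3.62e-06) and Adcy9 by 1.24 (SE 0.24, adjusted p = 0.00106), each with no overlap between HFD and NC, and without NC replicate 6 these were 2.90, 2.23 and 1.18. In SZ-A against HFD, Adcy7 fell by 1.34 (adjusted p = 0.00487), Adcy3 by 1.33 (adjusted p = 0.000806) and Adcy9, which went from 7.03 to 3.20 FPKM, fell as well (adjusted p = 0.00426). The fit with the adipocyte score kept the calls of Adcy3 (-1.39, adjusted p = 0.0191) and Adcy9 (-1.13, adjusted p = 0.0335). It did not keep that of Adcy7 (-0.75, adjusted p = 0.133). Adcy7 stayed above NC in SZ-A mice, by 1.65 (adjusted p = 0.0228) and by 1.56 without NC replicate 6 (adjusted p = 0.0374), a call lost without NC replicate 2 or 5 or SZ-A replicate 6 (adjusted p 0.0517 to 0.0551). The macrophage scores of these groups lie in the same order, and their part in these changes was not tested.

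Of 12 other lipases and hydrolases, 3 rose and 2 fell in HFD against NC, and 1 rose and 3 fell in SZ-A against HFD. The shares of all genes were 21% and 20.1% in the former, and 9.47% and 13.3% in the latter. Without NC replicate 6, 3 rose and 5 fell in HFD against NC, where 45.2% of all genes were called. The 3 that rose in HFD had the largest changes and are named here. Lipa, the lysosomal acid lipase, went from 29.7 ± 15.0 FPKM in NC to 450 ± 157 in HFD and 155 ± 74.9 in SZ-A mice (SD). It rose by 4.14 in HFD (SE 0.50, adjusted p = 2.51e-05) and fell by 1.58 in SZ-A against HFD (SE 0.28, adjusted p = 0.00189), where it was above NC by 2.55 (adjusted p = 0.0116). Its differences from NC were 3.60 in HFD and 2.02 in SZ-A mice without NC replicate 6. Within HFD and NC, Lipa peaked in the mouse with the highest macrophage score (705 FPKM in HFD replicate 1, 47.1 in NC replicate 3). SZ-A replicates 5 and 6 had the highest macrophage scores of their group (6.48 and 6.35) and the most Lipa (225 and 292 FPKM). The part of macrophages in the Lipa level was not tested. Daglb, a diacylglycerol lipase, rose by 3.14 (SE 0.15, adjusted p = 1.34e-08) and fell by 1.26 with SZ-A (adjusted p = 0.00112), staying 1.88 above NC (adjusted p = 0.000667). It was above NC by 3.09 in HFD and 1.82 in SZ-A mice without NC replicate 6, and the highest SZ-A mouse was replicate 6 (19.1 FPKM against 6.15 to 8.96 in the others). Abhd12, a serine hydrolase of lysophospholipids, rose by 1.20 in HFD (adjusted p = 0.00489), or 1.32 without NC replicate 6, and fell by 0.81 with SZ-A (adjusted p = 0.00304). In the fit of SZ-A against HFD with the adipocyte score, Daglb still fell, by 1.09 (adjusted p = 0.032). Lipa (-0.95, adjusted p = 0.0559) and Abhd12 (-0.44, adjusted p = 0.0759) lost their calls there.

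Of 17 other droplet proteins, 3 rose and 1 fell in HFD against NC, and 3 rose and none fell in SZ-A against HFD. The shares of all genes were 21% and 20.1% in the former, and 9.47% and 13.3% in the latter. With NC replicate 6 left out, 4 rose and 5 fell in HFD against NC, where 45.2% of all genes were called. Plin5, the perilipin of oxidative tissues, was at 4.34 ± 1.58 FPKM in HFD and 13.8 ± 4.23 in SZ-A mice (SD, n = 7 each), and it rose by 1.48 with no overlap (SE 0.23, adjusted p = 0.000969). Tmem159, which binds seipin at forming droplets, fell by 1.26 in HFD (SE 0.19, adjusted p = 0.000187) and rose by 0.54 with SZ-A (adjusted p = 0.018), with no overlap in either comparison. Fitm2, which acts in droplet formation, rose by 0.97 with SZ-A (adjusted p = 0.0291), a call lost without any 1 of HFD replicates 1, 3 and 5 and SZ-A replicates 1, 3 and 4 (adjusted p 0.0584 to 0.0618). In the fit of SZ-A against HFD with the adipocyte score, Plin5 (0.88, adjusted p = 0.0296) and Tmem159 (0.69, adjusted p = 0.0449) still rose. Fitm2 did not pass there (0.023, adjusted p = 0.917). Hilpda, another inhibitor of ATGL, rose by 1.51 in HFD (SE 0.32, adjusted p = 0.00203), and Vps13c, a lipid transfer protein, by 0.74 (adjusted p = 0.0197). The differences were -1.22 for Tmem159, 1.37 for Hilpda and 0.58 for Vps13c without NC replicate 6, each still called.

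Among 6 genes for the export and binding of the products, 1 rose and 2 fell in HFD against NC, none was called in SZ-A against HFD, and 1 rose in SZ-A against NC. Of all genes, 41.1%, 22.8% and 4.61% were called in these comparisons. Without NC replicate 6, 2 rose and 3 fell in HFD against NC, where 45.2% of all genes were called. Fabp5, a fatty acid binding protein of macrophages as well as adipocytes, rose by 2.46 in HFD (SE 0.34, adjusted p = 9.25e-05) and was 1.93 above NC in SZ-A mice (adjusted p = 0.0186). Aqp9, a glycerol channel, fell by 3.77 in HFD (SE 0.66, adjusted p = 0.000552), and Gk, glycerol kinase, by 1.89 (SE 0.54, adjusted p = 0.0126). The differences of HFD from NC were 2.12 for Fabp5, -3.51 for Aqp9 and -1.66 for Gk without NC replicate 6, and Fabp5 was 1.60 above NC in SZ-A mice. Aqp9 and Gk were high where the epididymis score was high: Aqp9 was at 36.6 to 51.4 FPKM in NC replicates 1, 2 and 6 and up to 23.6 in SZ-A replicates 2 and 7, and at 0.406 in NC replicate 3, which had the lowest epididymis score of NC (2.98). Gk was at 14.7 to 35.2 FPKM in those 3 NC mice, 23.9 and 15.9 in those SZ-A mice and below 1 in NC replicate 3. Whether RNA of epididymis was present, and its part in their fall, was not tested.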

How the data were processed

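The authors purified poly(A) RNA from eWAT, made libraries with the NEBNext Ultra kit and sequenced them as paired ends, then aligned reads to GRCm38 with HISAT2. The submitters' processing notes name featureCounts 1.5.0-p3, and its settings are not given in the sources used here. The deposited values are FPKM, which the authors scaled to exon length and library size, for 14776 genes above 0 in all 20 mice. The labels give 6 NC mice, fewer than the study states. Symbols were matched for 14765 gene identifiers.

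Whole reads were recovered from the FPKM with GENCODE M21 exon lengths: in each mouse, 95.9% to 96.3% of values under 1000 reads were whole within 0.01. They served only for depth and for limma's voom as an alternative. Voom called 3046 genes higher and 2823 lower in HFD against NC, 1400 and 2004 in SZ-A against HFD, and 560 and 50 in SZ-A against NC, where the main test called 3091 and 2956, 1392 and 1957, and 611 and 67. The main test was limma 3.58.1 in R 4.3.3 (lmFit, eBayes with trend) on log2(FPKM + 1) of the 2 groups compared, keeping genes whose mean reached 0.1 FPKM, with Benjamini-Hochberg adjustment over all genes tested. The study's DESeq2 needs counts and was not run. All 10 genes passed the filter. The p-values set group differences against the spread between mice. They cannot cover a cage, litter or batch that the labels do not give. Ratios within a mouse used two-sided exact permutation tests. Steps were tested on simulated data, and tables and plots were made with Python 3.11.15, pandas 2.3.3 and matplotlib 3.10.9.

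The genes and lists were chosen with earlier results of these data known. Named are the 10 genes, up to 3 called genes with the largest change per further list and comparison, the nearest gene to each of the 10, and example markers. Of the genes so named, 2 are not reported here. Alternatives were another pseudocount (0.1), filter, scaling, weighting, samples in the fit, marker scores as covariates, the replicate number as a block and leaving out each mouse. The fits with the adipocyte score and without NC replicate 6 together were chosen after seeing the data.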

Additional observations from a re-analysis of the deposited data

Results flagged for a closer look

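Groups of 6 or 7 mice were examined for a single mouse far from the others, in 54 group and measure combinations, of which chance flags about 1 in 20. Of the 8 found, 7 were NC replicate 6, whose level was far below the other NC mice for Lipe (11.8 FPKM), Mgll (42.4), Plin1 (3.59), Plin2 (5.51), G0s2 (2.91) and Cidec (63.9), and whose adipocyte marker score was 3.54. These flags share 1 library and are not independent. The other was SZ-A replicate 5, with a log2 ratio of Cidec to Plin1 of 4.33.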

How the results depend on the processing

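The calls among the 10 genes depended on the mice and on the marker scores more than on scaling. In HFD against NC, where 2 genes were called, 4 were with array quality weights, 6 with the adipocyte score as a covariate, 1 with the macrophage score and 8 with the epididymis score, and 2 to 5 when single mice were left out. The shares of all genes called in these 4 fits were 49.5%, 54.7%, 10.1% and 32.5%, against 41.1% in the reported one. Neither the macrophage nor the epididymis scores overlap between NC and HFD mice, so the fits with these scores extrapolate. In SZ-A against HFD, where 3 were called, none (0) was with all 3 groups in the fit or with the adipocyte or macrophage score, 1 past the stricter threshold, 9 with array quality weights, 5 with the epididymis score and 1 to 5 when single mice were left out. Of all genes, 22.8% were called in the reported fit, 14.2% with all 3 groups, 7% with the adipocyte score, 3.65% with the macrophage score, 43.6% with array quality weights and 21.8% with the epididymis score. In SZ-A against NC, where 0 were called, 1 was with all 3 groups, array quality weights or the epididymis score, 3 with the adipocyte score, 2 with that score and NC replicate 6 left out, and 0 to 1 when single mice were left out. Of all genes, 4.61% were called in the reported fit and 10.4%, 17.9%, 2.78%, 9.2% and 9.09% in these alternatives, in the order given. Pseudocount, filter, median-ratio scaling, quantile normalization and voom changed none of these 3 counts. Of the 15 ratio tests, 5 passed, against 8 with a pseudocount of 0.1 or the rank-sum test and 4 to 9 when single mice were left out. Of the further genes, 12 were called in SZ-A against HFD with all 3 groups in the fit (19 in the 2-group fit) and 7 in SZ-A against NC (4 in the 2-group fit).

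Replicate numbers do not pair the mice: over 19 same-numbered pairs the deviations from group means correlated from -0.41 to 0.584, and 1 was best with its own number. With the replicate number as a block, 2, 1 and 0 of the 10 genes were called in the 3 comparisons, beside 30.1%, 17.8% and 1.13% of all genes. In the sign-flip test of same-numbered pairs 0 ratio tests passed, where 6 pairs allow no p below 0.0312.

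These log2 differences took the other sign, and the cause was not tested. With the adipocyte score as a covariate they were Pnpla2 0.13, Lipe 0.36, Mgll 0.25, Abhd5 0.17 and Cidec 0.51 in HFD against NC, Pnpla2 -0.27, Lipe -0.11, Mgll -0.26, Plin1 -0.58, Pde3b -0.44 and Cidec -0.33 in SZ-A against HFD, Pnpla2 -0.067 in SZ-A against NC. With that score and NC replicate 6 left out they were Pnpla2 0.41, Lipe 0.54, Mgll 0.67, Abhd5 0.20 and Cidec 0.53 in HFD against NC, Pnpla2 -0.0057 in SZ-A against NC. With the macrophage score they were Plin1 -6.13, Plin2 -4.55 and G0s2 -5.81 in HFD against NC, Mgll -0.37, Plin1 -1.18, Plin2 0.40 and Pde3b -0.96 in SZ-A against HFD, Pnpla2 -2.15, Lipe -1.78, Mgll -0.98, Plin1 -1.42, Plin2 -1.85, G0s2 -1.58 and Cidec -2.46 in SZ-A against NC. With the epididymis score they were Plin1 -3.05 and G0s2 -2.47 in HFD against NC, Abhd5 0.10 in SZ-A against HFD, Pnpla2 -0.58, Lipe -0.17, Mgll -0.091 and Cidec -0.44 in SZ-A against NC. With array quality weights they were Plin1 -0.39 and G0s2 -0.11 in HFD against NC, Abhd5 0.26 in SZ-A against HFD, Pnpla2 -0.026 in SZ-A against NC. In SZ-A against HFD, Abhd5 was 0.0078 with median-ratio scaling and 0.023 with quantile normalization. Leaving out single mice gave both signs, in HFD against NC for Mgll (-0.62 to 0.0090), Abhd5 (-0.44 to 0.12), Plin1 (-0.55 to 0.70), G0s2 (-0.27 to 0.96), the ratio Abhd5 to Plin1 (-0.76 to 0.11), and in SZ-A against HFD for Abhd5 (-0.090 to 0.12), the ratio Cidec to Plin1 (-0.10 to 0.28), and in SZ-A against NC for Pnpla2 (-0.29 to 0.52), Mgll (-0.0040 to 0.58), Abhd5 (-0.45 to 0.12), Cidec (-0.16 to 0.87). The macrophage scores of the groups do not overlap, so that covariate and the groups can hardly be told apart. The same holds for the epididymis scores of NC and HFD mice, which do not overlap either. In HFD against NC, the fits with the epididymis score therefore extrapolate as well. With the epididymis score, Plin2 lost its call in SZ-A against HFD (-0.69, adjusted p = 0.0719). Spread between mice, more than read depth, limits these results.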
